A study of Mus musculus with 6 samples.

Results

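The data compare small thymic epithelial cells that strongly express a Meis1 reporter with small thymic epithelial cells that lack it. The comparison was chosen by sample title and holds 4 of the 6 arrays of the series, 2 per gate. The arrays of the remaining gate (large cells with intermediate EGFP) are not used here. All mice were C57BL/6, 4 weeks old, and carried the Meis1-EGFP BAC transgene [Tg(Meis1-EGFP)FO156Gsat/Mmcd], so the Meis1-negative cells carry it too. Cells were sorted as CD45- EpCAM+. The Meis1-high gate took EGFPhigh FSClow cells and the Meis1-negative gate EGFP- FSClow cells, where FSC, forward scatter, follows cell size. Each array holds RNA from a pool of 6 mice, and 10 ng was amplified and labelled with Cy3. The gates rest on EGFP from a transgene and not on Meis1 protein. The labels name 2 independent experiments but do not pair the pools of the gates.

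Thymic epithelial cells form the stroma on which thymocytes mature into T cells. Cortical cells present the peptides for positive selection. Medullary cells display tissue antigens, in part through Aire, and include tuft cells, which carry the machinery of taste signalling, and cornified cells. Meis1 belongs to the TALE class of homeobox genes, and its protein binds DNA with other homeodomain proteins and is known for its role in stem and progenitor cells. The title of the series asks for the transcriptional signature of each Meis1 level, and this comparison gives it for small cells with the strongest and with no reporter signal.

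Levels below are log2 signal minus the 75th percentile of the array, so that 0 stands for the signal at that percentile, and differences are Meis1-high minus Meis1-negative on the log2 scale. Levels of different genes are not set against each other, since probes differ in brightness per molecule. In amplified RNA of a sorted pool, fewer cells of a type and less RNA per cell cannot be told apart. The signal at the 75th percentile lay between 73.3 and 165.2, and 53.1% to 69.6% of spots were well above background. Replicate 1 of both gates lay on slide 1 and replicate 2 on slide 2, with a scan each, so each slide gives 1 difference of its own.

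Meis1-negative replicate 1 stood apart. The summed signal of 23 thymocyte and T cell markers, in units of the array's 75th percentile, was 13.8 and 13.5 on the Meis1-high arrays, 1293 on Meis1-negative replicate 1 and 34.5 on Meis1-negative replicate 2. The 21 epithelial junction and simple keratin genes had a median level there of -1.31, against 1.08 on Meis1-negative replicate 2 and 0.51 and 1.62 on the Meis1-high arrays. All 4 pools were sorted as CD45-, but Ptprc, which encodes CD45, measured -0.69 and 0.37 in Meis1-high and 5.16 and 3.17 in Meis1-negative. Both Meis1-negative arrays therefore lay above both Meis1-high arrays for this leukocyte gene, replicate 2 included. The part of leukocyte RNA in the differences below was not tested, and list medians are given on slide 2 as well, which does not hold Meis1-negative replicate 1.

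**Figure D1:**
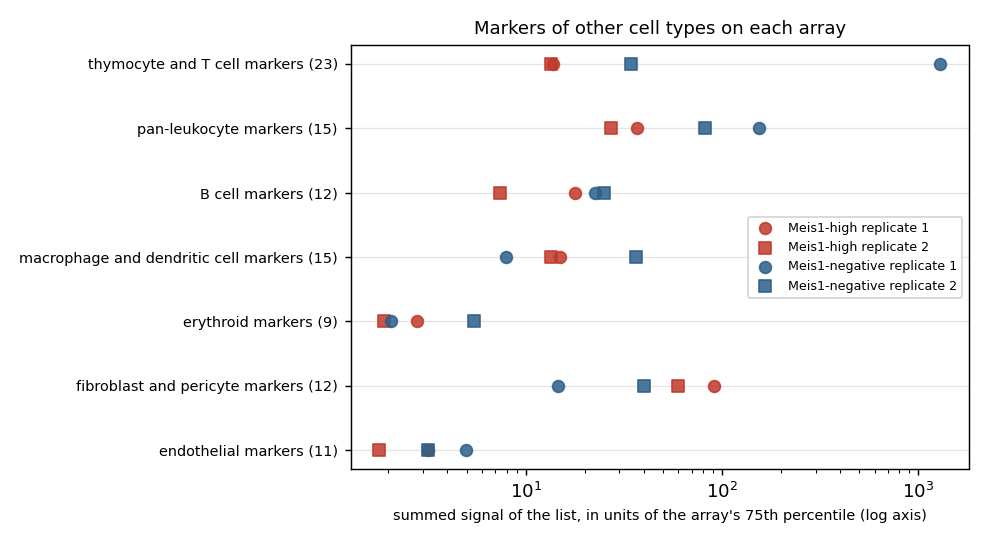
Summed signal of 7 lists of markers of other cell types (number of genes on the array in brackets) on each array, on a log axis in units of the array's 75th percentile. Thymocyte and T cell markers reach 1293 on Meis1-negative replicate 1 and 34.5 on Meis1-negative replicate 2, above 13.8 and 13.5 on the Meis1-high arrays.

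The reporter gene followed the gates. Meis1 measured 0.24 and 0.12 in Meis1-high and -3.20 and -0.99 in Meis1-negative (probe at chr11:18911247-18911306, mm9). Both Meis1-high arrays lay above both Meis1-negative arrays, with a mean difference of 2.28 ± 0.90 (SE, 2 arrays per gate), which is 4.84-fold. The SE here and below is the moderated one of limma, which draws on the variance of all tested genes and not on the gene's arrays alone. The Meis1 difference was 1.11 on slide 2. Epcam, used for the sort, measured 3.72 and 4.51 against 2.58 and 4.41, and the ranges overlapped. Foxn1, the transcription factor that thymic epithelium depends on, measured 0.20 and 1.10 against -0.68 and 0.92, also with overlap. Krt8 measured 5.35 and 5.21 against 2.68 and 4.62, a keratin that marks simple epithelium and thymic cortex.

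Across the 16450 genes tested, no gene passed an adjusted p of 0.05 in limma, 0 higher and 0 lower (0% of genes tested in each direction), and the smallest adjusted p was 0.102. An unadjusted p under 0.05 was reached by 1726 genes, 965 higher and 761 lower, where 822 would be expected if none differed. With slide as a block, 26 genes passed higher in Meis1-high and 128 lower, and 153 of these 154 were among the genes separated at least 2-fold, described next. An exact permutation test of 2 against 2 arrays cannot give a p below 0.333, so single genes are described by their separation. A gene was counted as separated where the lower array of one gate exceeded the higher array of the other by at least 2-fold. By this count 767 genes (2.74% of the 28017 genes on the array) were higher in Meis1-high and 667 (2.38%) were lower. Higher on both slides, by any amount, were 39.5% of the genes on the array and lower on both slides 22.1%, which are the backgrounds for the member counts below over all genes on the array. Among the 16450 tested genes alone the balance was the other way, with 29.4% higher and 32% lower on both slides, and the 2-fold shares were 4.66% and 4.05%. Most lists below hold mainly tested genes, so both backgrounds apply. With the arrays scaled on the median of the epithelial junction and simple keratin genes, which moved the median of all tested genes from -0.09 to -1.27, the 2-fold counts were 150 higher and 1247 lower. This scaling takes a constant from each array, so it moves every difference and list median alike, by -1.18.

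Differences on the slides were related but unequal in size. Over the tested genes the slide 1 and slide 2 differences correlated at r = 0.419, a description across genes that share arrays. Slide 1 held 2687 genes over 4-fold higher in Meis1-high and 2095 over 4-fold lower, and slide 2 held 282 and 615. The Meis1-negative arrays differed over 4-fold from each other at 3169 genes and the Meis1-high arrays at 1258. The medians of the tuft, taste, basal, attachment and matrix lists described below were all smaller on slide 2 than on slide 1.

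**Figure D2:**
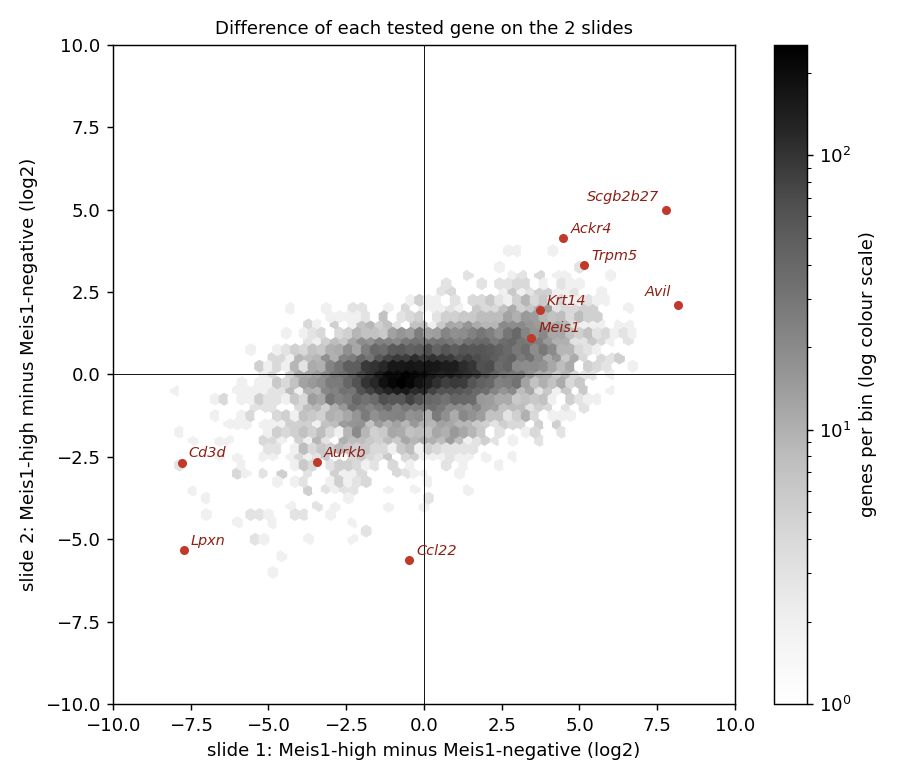
Difference of each of the 16450 tested genes on slide 1 (horizontal) and slide 2 (vertical), Meis1-high minus Meis1-negative in log2, with darker bins holding more genes on a log colour scale. Named genes in red, drawn at their measured signal also where that is not above background (Ackr4 in Meis1-negative, Lpxn in Meis1-high), include Trpm5 and Ackr4, high on both slides, Lpxn, low on both, and Ccl22, at -0.48 on slide 1 and -5.64 on slide 2.

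Of the 15 genes with the widest separation of measured signals upward, 9 were not well above background on either Meis1-negative array and 3 were above it on 1 of 2, so these separations are bounds and their order is not settled. Trpm5, Tas2r118 and Tas2r108 were above background on all 4 arrays. Ackr4 is an atypical receptor that scavenges the chemokines Ccl19, Ccl21 and Ccl25. Ackr4 measured -1.44 and -1.42 in Meis1-high and was not well above background on either Meis1-negative array (-5.91 and -5.55). It was at least 5.95-fold higher in Meis1-high, where a bound is the mean of the bright gate over the lowest signal well above background, or the dim gate's own signal where that is larger. Its adjusted p in limma was 0.117, and 0.0243 with slide as a block. Its probe lies at chr9:104000864-104000923 (mm9).

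A secretoglobin pair was among these genes too. Scgb2b27 measured 1.93 and 2.94 in Meis1-high and -5.86 and -2.06 in Meis1-negative, where 1 of 2 arrays was above background, a difference of 5.0 on slide 2 (adjusted p = 0.155, and 0.00788 with the block). Scgb1b27 was at least 6.73-fold higher, with -2.01 and -0.49 against -5.64 and -6.33 (adjusted p = 0.128, and 0.0209 with the block). Secretoglobins are small secreted proteins from a family of near-identical copies, so these probes may read related genes.

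The other genes of the 15 were Fam227a, Trpm5, Pcdhb7, Slit2, Prss53, Tas2r118, Fam13a, Hoxb2, Tas2r108, Klhdc8b, Osbpl6 and Itprid1. Klhdc8b was at least 5.91-fold higher, Osbpl6 at least 4.95-fold and Itprid1 at least 2.53-fold. Trpm5, Tas2r118 and Tas2r108 belong to taste signalling and are described with it below. Slit2, a secreted guidance ligand for Robo receptors, measured -0.95 and -0.77 against -5.53 and -4.11 with a probe not above background in Meis1-negative. A second Slit2 probe that passed the filter differed by 0.87 only, so the size for this gene is not settled. Pcdhb7, a clustered protocadherin, was at least 8.17-fold higher, with -0.67 and -1.27 against -5.64 and -4.54. Fam227a was at least 6.09-fold higher and Prss53, a serine protease, at least 6.21-fold. With slide as a block, 7 of these 12 genes had an adjusted p under 0.05, from 0.0332 for Tas2r118 to 0.0449 for Klhdc8b, and Fam13a, Tas2r108, Osbpl6 and Prss53 had 0.0507 to 0.071, with Itprid1 at 0.0949.

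Genes of tuft cells and of taste transduction lay higher in Meis1-high. In these cells bitter receptors act through the G protein subunits Gnb3 and Gng13 and the phospholipase Plcb2 to open the cation channel Trpm5. Of 11 taste transduction genes on the array, 8 were higher on both slides and 0 lower, and 4 were separated 2-fold. Their median difference was 1.27, with 1.76 on slide 1 and 1.16 on slide 2, against 0.18, 0.45 and 0.12 over all genes on the array and -0.09, -0.12 and 0.0024 over those tested. With arrays scaled on the epithelial genes the taste median was 0.09, when that of all tested genes was -1.27.

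Trpm5 measured 1.83 and 1.49 in Meis1-high and -3.31 and -1.82 in Meis1-negative, an 18.7-fold difference of the means (4.23 ± 0.80 SE, 2 arrays per gate, limma adjusted p = 0.16, and 0.0338 with the block). The gates did not overlap, and the slide 2 difference was 3.31. Gnb3 measured 1.09 and 1.51 against -4.57 and -0.91, with 1 of 2 Meis1-negative arrays above background. Gng13 measured 3.39 and 2.83 against -1.54 and 0.94, and Plcb2 -0.24 and -0.16 against -2.12 and -1.54. All of these gates were separated without overlap. Among the bitter receptors, Tas2r118 measured 1.97 and -0.07 against -3.08 and -3.46 and Tas2r108 measured 1.95 and 1.53 against -2.40 and -1.47. Tas2r108 differed by 2.99 on slide 2 and Tas2r118 by 3.39.

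Tuft identity and effector genes behaved alike in count. Of 22 on the array, 16 were higher on both slides, 0 were lower on both, and 7 were separated 2-fold, with a median difference of 2.03 (2.76 on slide 1, 1.20 on slide 2, and 0.85 with the epithelial scaling). Avil, the actin-bundling advillin, measured 2.21 and 1.88 against -5.96 and -0.21, with 1 of 2 Meis1-negative arrays above background and 2.09 on slide 2. Alox5, which starts leukotriene synthesis, measured 2.39 and 2.13 against -2.36 and -0.41. Dclk1, the kinase used as a tuft marker, measured 2.93 and 2.84 against -0.80 and 0.64. The cytokine gene Il25 measured -1.99 and -1.88 against -5.82 and -4.02, with 1 of 2 Meis1-negative arrays above background. Both Meis1-high arrays were above both Meis1-negative arrays for each of the 4. Il17rb went the other way on slide 1 (-4.59) and not on slide 2 (1.03).

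**Figure D3:**
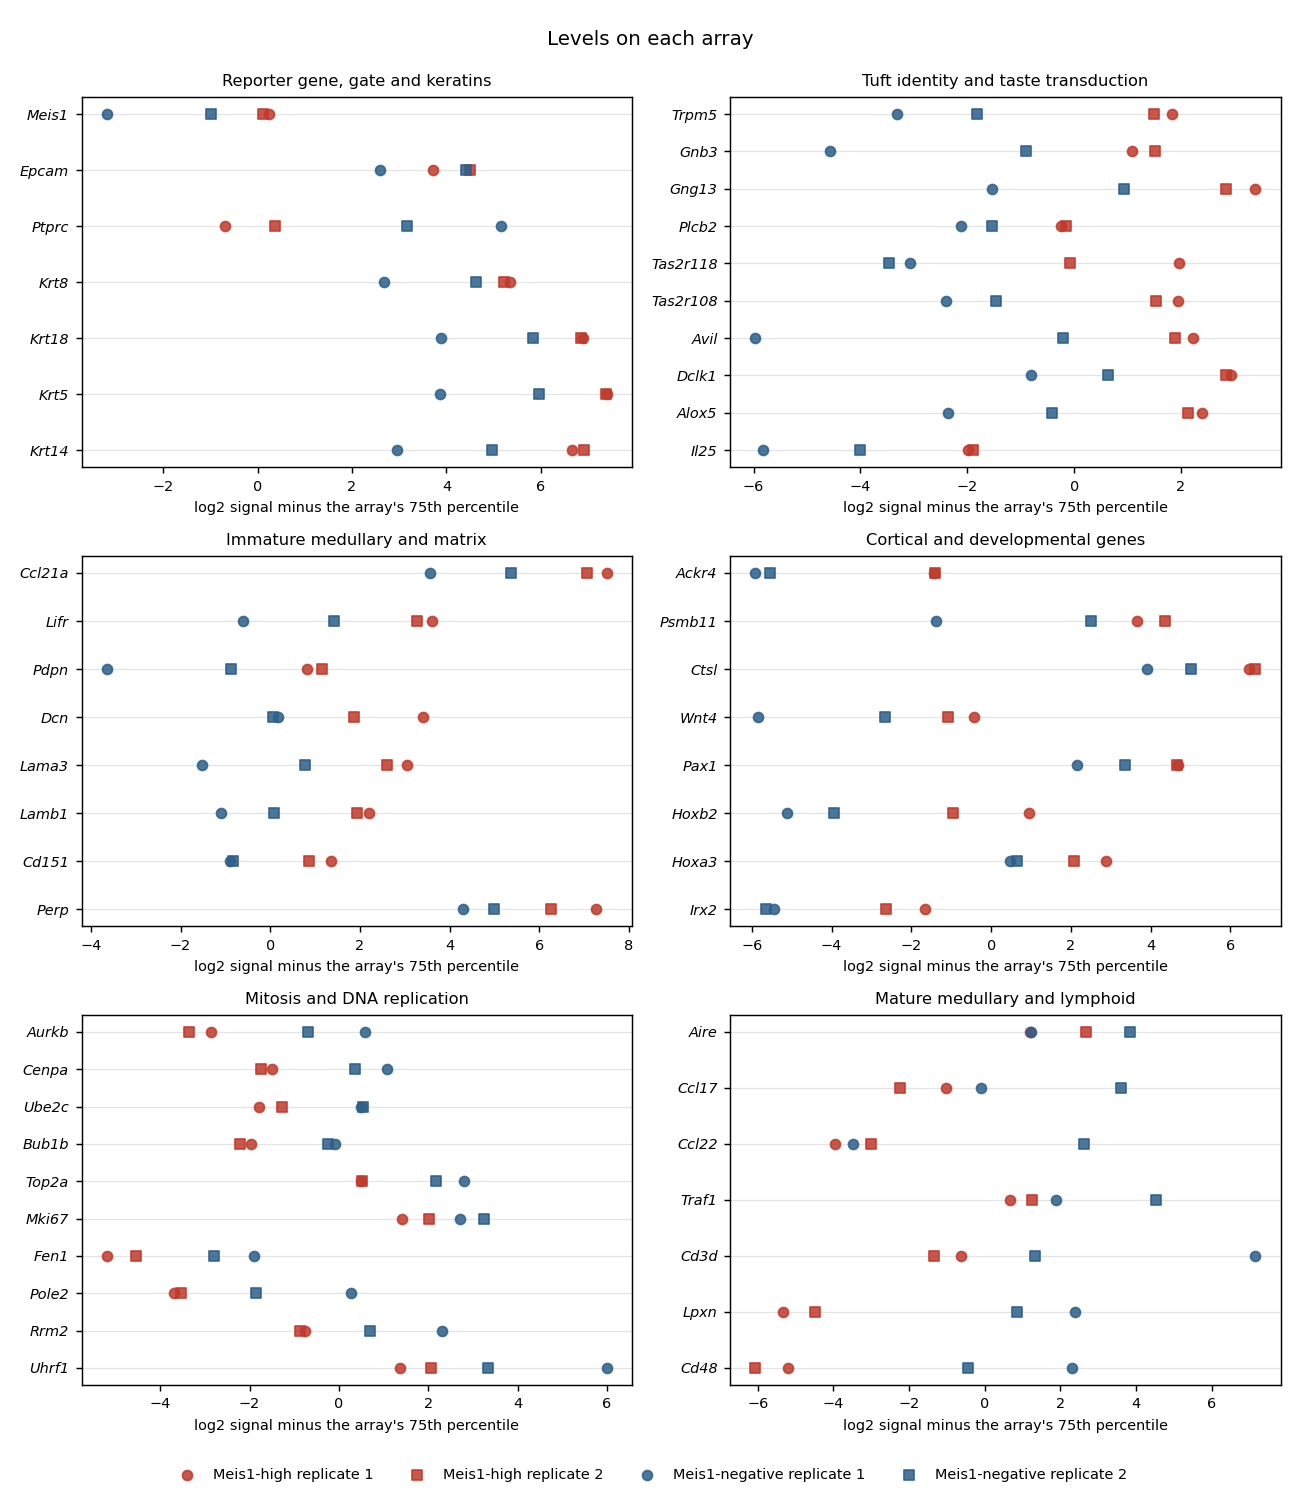
Level of single genes on each of the 4 arrays, as log2 signal minus the array's 75th percentile, in 6 groups (red Meis1-high, blue Meis1-negative, circles slide 1, squares slide 2). Trpm5 lies at 1.83 and 1.49 in red against -3.31 and -1.82 in blue, Aurkb at -2.86 and -3.36 in red against 0.59 and -0.70 in blue, and for Ccl17 one blue point at 3.60 stands apart.

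Basal keratins and genes of immature medullary cells also lay higher. Of 15 genes, 14 were higher on both slides, 0 lower and 7 separated 2-fold, and the median difference was 2.47 (3.23 on slide 1 and 1.42 on slide 2, and 1.43 without Meis1-negative replicate 1). Ccl21a, the medullary chemokine that attracts positively selected thymocytes, measured 7.51 and 7.06 against 3.56 and 5.36, a 7.05-fold difference, although probes for it can read its near-identical copies. Krt14 measured 6.67 and 6.92 against 2.94 and 4.97, 1.95 apart on slide 2. Krt5, its partner in basal cells, measured 7.40 and 7.38 against 3.87 and 5.95.

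The surface and matrix genes in this list had the same order of arrays. Lifr, the receptor for leukemia inhibitory factor, measured 3.61 and 3.26 against -0.60 and 1.42, and Pdpn, podoplanin, 0.82 and 1.16 against -3.65 and -0.87. Pdpn was above background on 1 of 2 Meis1-negative arrays. Dcn, a collagen-binding proteoglycan that is also a fibroblast marker, measured 3.42 and 1.87 against 0.18 and 0.06. Beside it, the 12 fibroblast and pericyte markers had a summed level of 90.5 and 59.9 in Meis1-high and 14.7 and 40.2 in Meis1-negative, and a median difference of 0.00 on slide 2. Their part in the Dcn value was not tested. Of the 21 epithelial junction and simple keratin genes, 15 were higher on both slides, 1 lower and 2 separated 2-fold. Their median was 2.34 on slide 1, 0.39 on slide 2 and -0.12 without Meis1-negative replicate 1.

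Attachment genes followed. Desmosomes join epithelial cells to each other and hemidesmosomes join them to the basement membrane. Of 16 such genes, 14 were higher on both slides and 7 were separated 2-fold (median 1.94, and 1.03 on slide 2). Cd151, the tetraspanin of hemidesmosomes, measured 1.35 and 0.86 against -0.89 and -0.83. Dst, which links them to keratin, measured 1.0 and 1.08 against -1.59 and -0.28, and Perp, a desmosomal membrane protein, 7.27 and 6.26 against 4.30 and 5.0.

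Of 26 basement membrane and matrix genes, 22 were higher on both slides, 1 was lower, and 7 were separated 2-fold (median 1.88, and 0.93 on slide 2). Laminin chains were among the separated genes. Lama3 measured 3.06 and 2.61 against -1.52 and 0.78, and Lamb3 differed by 2.98 on slide 1 and 1.92 on slide 2. Lamb1 measured 2.20 and 1.94 against -1.11 and 0.09, a 5.96-fold difference. Col18a1 measured 0.74 and 0.39 against -2.67 and -0.95, and Col4a5 was at least 2.52-fold higher, since it was not above background in Meis1-negative.

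**Figure D4:**
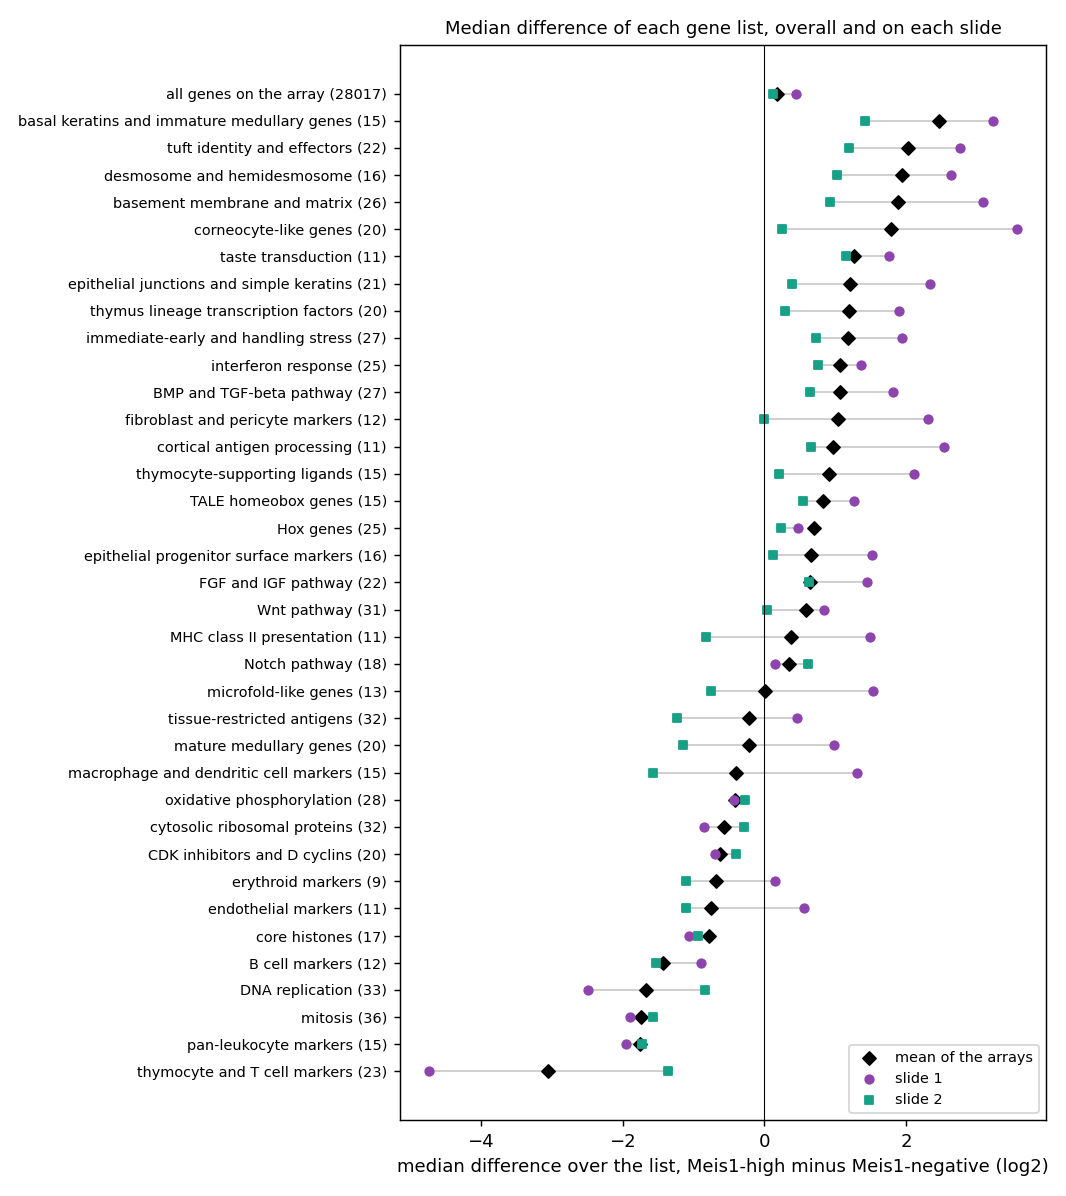
Median difference, Meis1-high minus Meis1-negative in log2, of each gene list (number of genes on the array in brackets), from the gate means (diamond), on slide 1 (circle) and on slide 2 (square). Basal keratins and immature medullary genes lie at 2.47 with 3.23 and 1.42 on the slides, mitosis at -1.75 with -1.90 and -1.56, and mature medullary genes at 0.99 on slide 1 and -1.14 on slide 2.

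Genes of cortical antigen processing were split. The list also holds Psmb8, Psmb9 and Psmb10, which are subunits of the immunoproteasome and not particular to cortical cells. Of 11, 6 were higher on both slides and 3 lower, with a median of 0.97 that was 0.66 on slide 2, 0.12 without Meis1-negative replicate 1 and -0.21 with arrays scaled on the epithelial genes. Psmb11, the cortical proteasome subunit beta5t, measured 3.65 and 4.37 against -1.37 and 2.51, a 10.8-fold difference of the means and 1.85 on slide 2. Ctsl, the cortical cathepsin L, measured 6.46 and 6.63 against 3.90 and 5.01, and Slc46a2 4.68 and 3.37 against 2.15 and 1.76. Prss16, the thymus-specific serine protease, measured 2.36 and 4.28 against -0.29 and 2.22, so that the gates lay 0.14 apart. Psmb8, a subunit of the immunoproteasome, which is abundant in leukocytes, was lower, at 2.95 and 3.38 against 4.87 and 4.46.

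Ligands that support thymocytes gave 10 of 15 higher on both slides and 2 lower, with a median of 0.92 and 0.20 on slide 2, and -0.26 with the epithelial scaling. The list also holds Ackr4, which is a receptor and not a ligand. Besides Ackr4, Wnt4, a Wnt ligand known to act on Foxn1 expression, was separated, at -0.44 and -1.08 against -5.84 and -2.67 (1 of 2 Meis1-negative arrays above background). Cxcl12, the chemokine that retains early progenitors, measured 2.42 and 3.51 against -1.13 and 1.44, and Kitl, the ligand of the receptor Kit, -1.83 and -1.40 against -4.44 and -2.59. Kitl was above background on 1 of 2 Meis1-negative arrays. Cxcl12 and Kitl were each higher on both slides, by 2.06 and 1.19 on slide 2.

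Transcription factors of the thymus lineage had 14 of 20 members higher on both slides, 1 lower and 1 separated 2-fold (median 1.20, and 0.30 on slide 2). That 1 was Pax1, needed for outgrowth of the pharyngeal pouch, at 4.68 and 4.66 against 2.16 and 3.37. Trp63, the p53 relative of stratified epithelia, measured 4.70 and 5.49 against 1.85 and 3.83, and Sox9 3.42 and 3.72 against 0.01 and 2.53.

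The TALE family, to which Meis1 belongs, had 8 of 15 members higher on both slides, 2 lower and 3 separated 2-fold. Its median of 0.83 was 0.54 on slide 2 and became -0.35 with the epithelial scaling, when the median of all tested genes was -1.27. Besides Meis1, Irx2 was at least 3.59-fold higher, at -1.67 and -2.65 against -5.44 and -5.63, and Pknox2 measured 2.53 and 1.50 against 0.16 and 0.05. Only 9 of the 25 Hox genes passed the filter on dim signal. Over all 25, 15 were higher on both slides, 1 lower and 3 separated 2-fold, with a median of 0.70 (0.24 on slide 2, and -0.47 with the epithelial scaling). Of the 25, 12 were not above background on either Meis1-high array and 10 on neither Meis1-negative array. Genes that failed the filter leaned upward across the array: 39.5% of all genes were higher on both slides, but 29.4% of tested genes. The count of 15 exceeds the 9 that passed the filter, so it includes genes that failed it. Their part in the count was not tested. Hoxb2 measured 0.96 and -0.94 against -5.11 and -3.94, with 1 of 2 Meis1-negative arrays above background (adjusted p = 0.179, and 0.0338 with the block). Hoxa3, required for the thymus to form, measured 2.87 and 2.09 against 0.48 and 0.64, 1.45 apart on slide 2. Hoxa2 was at least 4.83-fold higher, at -1.35 and -2.11 against -3.87 and -4.71.

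The 4 signalling pathways below had medians from 0.34 to 1.07. With the epithelial scaling each turned negative (-0.10 for BMP and TGF-beta, -0.53 for FGF and IGF, -0.59 for Wnt and -0.83 for Notch). In the BMP and TGF-beta pathway 17 of 27 genes were higher on both slides and 1 lower, and 7 were separated upward and 1 downward (median 1.07, and 0.65 on slide 2). The target gene Id1 measured 1.79 and 2.43 against -2.60 and 0.52, and Id3 0.27 and 0.09 against -2.42 and -1.30. The ligand Tgfb3 measured 1.04 and 1.70 against -0.34 and -0.32. Tgfb1, abundant in leukocytes, was the one gene separated downward, at least 2.38-fold, with -4.94 and -4.78 against -2.73 and -2.00. The activin antagonist Fst measured -1.11 and -0.60 against -4.70 and -2.33, with 1 of 2 Meis1-negative arrays above background.

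In the FGF and IGF pathway 12 of 22 genes were higher on both slides, 0 lower and 4 separated (median 0.65, and 0.63 on slide 2). Fgfr2, whose epithelial form receives FGF7 and FGF10 from mesenchyme, measured 3.09 and 3.46 against 0.13 and 1.53. Fgfr1 measured 0.06 and -0.90 against -2.96 and -2.20. The binding proteins Igfbp5 and Igfbp4 measured 6.40 and 5.67 against 2.78 and 3.91, and 0.12 and 0.94 against -2.04 and -1.30. In the Wnt pathway 14 of 31 were higher on both slides and 5 lower, with 4 separated (median 0.59, and 0.04 on slide 2). The receptor Fzd2 measured 1.33 and 1.08 against -2.66 and -1.55, and the secreted inhibitor Sfrp1 2.86 and 2.41 against 0.46 and 1.0.

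In the Notch pathway 9 of 18 genes were higher on both slides and 5 lower, with 3 separated upward and 2 downward (median 0.34, and 0.62 on slide 2). The ligand Jag2 measured 0.08 and 0.29 against -3.84 and -2.09, with 1 of 2 Meis1-negative arrays above background. The ligand Dll3 measured 1.48 and 0.88 against -0.59 and -0.36. The target Heyl measured -0.02 and 0.34 against -1.24 and -1.32. Lower were Lfng, which modifies Notch receptors and is active in thymocytes, at -2.12 and -0.58 against 1.55 and 0.60, and Rbpj, the DNA-binding effector, at -0.00 and 0.02 against 1.26 and 1.12.

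Genes of mitosis lay lower in Meis1-high on both slides alike. Of 36, 35 were lower on both slides, 1 (Kif2c) higher and 15 separated 2-fold downward. The median difference was -1.75, with -1.90 on slide 1, -1.56 on slide 2 and -1.52 without Meis1-negative replicate 1. The summed level of the list was 72.4 and 46.9 in Meis1-high and 278 and 151 in Meis1-negative. Thymocyte markers, given above, were also higher in Meis1-negative, with a median difference of -1.36 on slide 2, and dividing thymocytes express these genes too. Their part in the mitosis values was not tested.

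Aurkb, the kinase of the chromosomal passenger complex, measured -2.86 and -3.36 in Meis1-high and 0.59 and -0.70 in Meis1-negative, an 8.31-fold difference (-3.06 ± 0.79 SE, adjusted p = 0.278), with -2.66 on slide 2. Aurkb was above background on 1 of 2 Meis1-high arrays, so this size is not settled. Cenpa, the centromeric histone, measured -1.49 and -1.74 against 1.07 and 0.36. Ube2c, which drives the ubiquitination that ends mitosis, measured -1.79 and -1.28 against 0.48 and 0.53. For each of the 3, both Meis1-high arrays lay below both Meis1-negative arrays. Bub1b, of the spindle checkpoint, measured -1.97 and -2.21 against -0.08 and -0.25, and Top2a 0.50 and 0.52 against 2.79 and 2.17. Mki67, the Ki-67 antigen, measured 1.42 and 2.02 against 2.72 and 3.25, without overlap but less than 2-fold apart.

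Promoters of mitosis genes are known for the CCAAT box bound by NF-Y and the CHR element bound by the DREAM and MuvB complexes, and those of replication genes for E2F sites. The 150 bases before the RefSeq start (GRCm38.p6) are shown for 3 mitosis genes separated 2-fold that hold both elements there. These are examples, and other mitosis genes with both elements may be separated more widely. CCAAT and CHR (TTTGAA or TTCGAA), on either strand, are in capitals. The same bases are shown for 1 replication gene with an E2F site (TTTGGCGC, TTTCGCGC, TTTGGCGG or TTTCGCGG) in capitals. Ube2c lies at chr2:164769779-164769928 on the plus strand, Top2a at chr11:99024190-99024339 on the minus strand, Kif11 at chr19:37376232-37376381 on the plus strand and Orc1 at chr4:108579304-108579453 on the plus strand.
Ube2c: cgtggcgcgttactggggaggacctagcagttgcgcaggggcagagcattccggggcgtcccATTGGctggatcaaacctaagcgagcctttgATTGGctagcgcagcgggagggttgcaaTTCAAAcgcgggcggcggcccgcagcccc
Top2a: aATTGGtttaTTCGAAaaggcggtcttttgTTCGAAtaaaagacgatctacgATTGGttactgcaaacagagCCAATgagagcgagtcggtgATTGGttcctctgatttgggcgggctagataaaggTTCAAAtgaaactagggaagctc
Kif11: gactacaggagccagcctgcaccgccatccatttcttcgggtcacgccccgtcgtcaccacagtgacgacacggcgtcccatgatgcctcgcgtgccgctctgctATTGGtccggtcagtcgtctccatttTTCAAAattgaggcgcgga
Orc1: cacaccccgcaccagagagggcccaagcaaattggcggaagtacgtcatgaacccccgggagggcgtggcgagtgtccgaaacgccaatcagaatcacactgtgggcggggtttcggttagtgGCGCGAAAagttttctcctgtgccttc

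The CHR match nearest the start began 29 bases before it in Ube2c, 23 in Top2a and 19 in Kif11, and the nearest CCAAT 57, 58 and 45 bases before it. Within 250 bases before the start, 22 of 30 mitosis genes with a promoter in the table held CCAAT (73.3%), against 34.5% of the 27025 RefSeq promoters of the same length, and 10 of 30 held a CHR (33.3%), against 17.4%. An E2F match was held by 6 of 28 replication genes (21.4%), against 1.3% of all promoters. For TGACAG, the core of a Meis site, the share was 15.5% of the 445 genes separated upward that had a promoter and 16% of all promoters. The mitosis and replication shares describe the lists, whatever the arrays showed. Of the 369 genes separated downward that had a promoter, 39.3% held CCAAT, 19.2% a CHR and 1.36% an E2F match. Among tested genes the shares were 36.5%, 12.7% and 2.25%. All of these are letter matches in the window and not binding sites.

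Genes of DNA replication were lower as well, with more of the difference on slide 1. Of 33, 32 were lower on both slides, 0 higher and 5 separated 2-fold, and the median was -1.67, with -2.49 on slide 1, -0.84 on slide 2 and -0.73 without Meis1-negative replicate 1. Pole2, a subunit of DNA polymerase epsilon, measured -3.70 and -3.54 against 0.27 and -1.85, where 1 of 2 Meis1-high arrays was above background. Rrm2, which supplies deoxynucleotides, measured -0.76 and -0.87 against 2.31 and 0.70. Fen1, the flap endonuclease, lay at least 2.42-fold lower, at -5.20 and -4.55 against -1.90 and -2.79. Uhrf1, which keeps DNA methylation through replication, measured 1.36 and 2.07 against 5.99 and 3.34, and Gins2, a part of the replicative helicase, -1.86 and -2.19 against 0.63 and -0.61. Orc1, whose promoter is shown above, was at least 3.58-fold lower, at -4.88 and -4.86 against 0.42 and -3.98. For these 6 the Meis1-negative array with the thymocyte markers was the higher of its pair.

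Ribosomal protein and respiratory chain genes had small differences. Of 32 cytosolic ribosomal protein genes 27 were lower on both slides but 0 were separated 2-fold, with a median of -0.56 (-0.28 on slide 2, and -0.07 without Meis1-negative replicate 1). Of 28 oxidative phosphorylation genes 22 were lower on both slides and 0 separated (median -0.41, and -0.28 on slide 2). A list of 17 histone genes also holds linker histones and Hmgb2, which is not a histone. Of its members 13 were lower on both slides and 1 was higher, and the 1 separated downward was Hmgb2. The median was -0.78 (-1.06 on slide 1, -0.93 on slide 2, and -0.46 without Meis1-negative replicate 1). A list of D-type cyclins and inhibitors of cyclin-dependent kinases also holds E2f1, E2f2 and Rbl1, which are neither. Its median was -0.62 over 20 genes (-0.40 on slide 2), with 3 higher and 11 lower on both slides, and 0 separated.

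The widest separations of measured signals downward were of leukocyte genes. Of the 15, 10 were not above background on either Meis1-high array, which leaves their order unsettled. They were Lpxn, Iglv1, Ms4a6b, Cd48, Cd69, Selplg, St8sia4, Arhgap30, Mzb1, Ccl4, Myo1g, Gpr65, Rasal3, Igh-VJ558 and Evi2a, and each had an adjusted p under 0.05 with slide as a block (0.00622 to 0.0171). Lpxn, the adaptor leupaxin, lay at least 37.8-fold lower, at -5.33 and -4.48 against 2.39 and 0.85. Cd48, a surface protein of lymphocytes, was at least 23.5-fold lower, at -5.19 and -6.06 against 2.30 and -0.43. Neither was above background on the Meis1-high arrays, and both were above it on both Meis1-negative arrays. A second Cd48 probe that passed the filter differed by -3.82. The Cd48 bound is thus that of the brighter probe, and the size for this gene is not settled.

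Cd69, the early activation marker, measured -2.69 and -2.10 against 3.52 and 2.57, and Ccl4, a chemokine of activated leukocytes, -2.51 and -2.49 against 2.27 and 1.92. Immunoglobulin genes were among them: Iglv1 measured -3.00 and -2.82 against 4.48 and 2.49, and Igh-VJ558 was at least 27.6-fold lower, although such probes read many related segments. Mzb1, a chaperone of immunoglobulin secretion, was at least 15.6-fold lower, at -4.57 and -4.99 against 0.79 and -0.10. All 5 were above background on both Meis1-negative arrays, so the second Meis1-negative pool carries them as well.

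By cell type, 21 of 23 thymocyte and T cell markers were lower on both slides and 10 were separated 2-fold, with a median of -4.73 on slide 1 and -1.36 on slide 2. Cd3d, part of the receptor complex of T cells, measured -0.63 and -1.34 against 7.16 and 1.33 (adjusted p = 0.328, and 0.035 with the block). Cd5, a T cell surface receptor, was at least 3.79-fold lower, at -4.27 and -4.13 against -1.75 and -1.65, and not above background in Meis1-high. Of 15 pan-leukocyte markers 13 were lower on both slides and 7 separated, with nearly equal medians of -1.96 and -1.72 on the slides. Cd53, a leukocyte tetraspanin, was at least 37.3-fold lower, at -3.53 and -4.18 against 2.85 and 0.35.

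B cell markers were further apart on slide 2 than on slide 1. Of 12, 8 were lower on both slides and 2 were separated, with a median of -0.90 on slide 1 and -1.52 on slide 2. Cd79a, a chain of the B cell receptor, was at least 2.64-fold lower, at -5.42 and -5.80 against -3.11 and -1.33. Summed B cell signal was 17.8 and 7.41 in Meis1-high and 22.7 and 25.1 in Meis1-negative. The 15 macrophage and dendritic cell markers summed to 14.9 and 13.5 in Meis1-high and to 7.9 and 36.6 in Meis1-negative.

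Genes of mature medullary cells had no common direction across the slides. Of 20, 0 were higher on both slides, 6 lower and 0 separated 2-fold, and the median was 0.99 on slide 1, -1.14 on slide 2 and -1.51 without Meis1-negative replicate 1. Aire measured 1.19 and 2.69 in Meis1-high and 1.22 and 3.84 in Meis1-negative, with overlap. The chemokine genes Ccl17 and Ccl22, which dendritic cells express too, measured -1.03 and -2.24 against -0.11 and 3.60, and -3.96 and -3.01 against -3.48 and 2.63. In both, Meis1-negative replicate 2 stood alone. The macrophage and dendritic cell markers, given above, were highest on that same array, and their part was not tested.

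MHC class II genes, which medullary and cortical cells use to present antigen to CD4 T cells, were above 0 on slide 1 and below it on slide 2. None of the 11 had the same direction on both slides, with medians of 1.5 and -0.82. H2-Ab1 measured 7.0 and 6.94 against 5.51 and 7.36, and Ciita, the coactivator that turns these genes on, 0.44 and 0.33 against -2.45 and 0.92. Of 32 tissue-restricted antigens, 5 were higher on both slides and 10 lower, with medians of 0.46 on slide 1 and -1.23 on slide 2. Of these, 3 were separated, all downward: Calca, Sst and S100a9, the last a calprotectin subunit abundant in myeloid cells. Calca had 2 probes that passed the filter and disagreed in sign, with differences of -1.19 and 0.88. S100a9 measured 3.93 and 3.84 against 5.25 and 5.89, and Sst, which encodes somatostatin, -2.43 and -0.69 against 2.07 and 0.60.

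Interferon response genes were mostly higher. Of 25, 18 were higher on both slides, 1 lower and 4 separated 2-fold, with a median of 1.08 (0.77 on slide 2, and -0.10 with the epithelial scaling). Ifit3 measured 4.10 and 4.64 against 1.21 and 2.82, and Rtp4 3.16 and 3.28 against 1.81 and 1.70. Immediate-early and handling-stress genes, which respond within minutes to dissociation and sorting, had 20 of 27 members higher on both slides, 1 lower and 5 separated (median 1.19, and 0.73 on slide 2). Fos measured 5.67 and 5.37 against 3.73 and 4.11, Atf3 3.32 and 3.28 against -0.57 and 1.89, and the heat shock gene Hspb1 3.60 and 3.36 against -0.10 and 1.63. Whether sorting affected the gates unequally was not tested.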

How the data were processed

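Agilent 1-colour whole mouse genome arrays of 4 sorted pools were compared. Per the file headers, the deposited scanner files hold a processed signal, an intensity after background subtraction and detrending by the authors' scanner software (Agilent Feature Extraction 9.5.3.1, per the submitters' processing notes), not scaled between arrays; probe positions are on mm9. A value table deposited by the authors holds log2 values centred per probe and served as an alternative; its differences correlate at r = 1 with those of the scanner values, and its scaling step is not stated.

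Control spots and the 62 to 78 outlier spots per array were left out, which left 43379 non-control spots and 41174 probes. Signals were averaged per probe, taken to log2 and reduced by the array's 75th percentile. A gene was represented by its probe with the highest mean among those well above background (over 13 SD of the background, the scanner's mark) on both arrays of a gate, which 16450 of 28017 genes had. For 15.5% to 28.2% of spots the software had replaced the signal by a surrogate. Names came from RefSeq accessions for 26690 probes, and 8423 kept the name in the files. Where probes of a separated gene disagreed in sign (21 genes), the brightest was used.

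The gates were tested with limma 3.58.1 in R 4.3.3 (lmFit and eBayes, 4 arrays, 2 residual degrees of freedom, Benjamini-Hochberg adjustment over all tested genes). A run on simulated data checked the code. It set no lower limit on the share of true differences found, so it does not bear on the count of genes called. Slide, scan and replicate number coincide, so slide was also fitted as a block and each slide given apart; replicate differences of the gates correlated at 0.071 across genes. Alternatives were other background corrections, scalings, filters, probe rules, weights and each array left out. The members and lists were chosen with earlier results of these data known. Named genes are the 15 widest separations in each direction, up to 5 members per list with the widest separation and 10 fixed genes; others were chosen after their values were seen, and a few named by the rule are not reported here. Motifs were searched in the RefSeq promoter table (GRCm38.p6, first-listed start per gene). Figures used Python 3.11.15, matplotlib 3.10.9 and pandas 2.3.3.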

Additional observations from a re-analysis of the deposited data

How the results depend on the processing

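The count of genes past an adjusted p of 0.05 in limma, 0 in each direction, was also 0 with normexp background correction, quantile scaling, the mean of probes, the authors' values, outlier spots kept, array weights, at an adjusted p of 0.10 and without Meis1-negative replicate 1. It was 83 higher and 228 lower with median scaling, 0 and 111 with scaling on the epithelial junction and simple keratin genes, 5 and 69 with no filter, 0 and 5 with the filter on all 4 arrays, 1 and 23 with a floor, and 0 and 9 with a variance trend and robust fit. The cause was not tested. With the replicate block, which is also the slide, it was 26 and 128; the labels do not say that the numbers pair the pools. Leaving out an array gave 0 to 551 higher and 0 to 349 lower: 551 and 349 without Meis1-negative replicate 2, 57 and 119 without Meis1-high replicate 2, and 5 and 32 without Meis1-high replicate 1.

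The 2-fold separations, 767 higher and 667 lower, became 199 and 153 with normexp and 150 and 1247 with the epithelial scaling. They were 3439 and 3485 for any separation and 134 and 228 for a 4-fold one. Leaving out an array, after which a gate of 1 array has no spread of its own, gave 1045 to 3833 higher and 982 to 3236 lower. The median difference of all tested genes, -0.09, was 0.028 with normexp, -0.22 with median scaling, -1.27 with the epithelial scaling, 0.18 with no filter and -0.17 to 0.14 with an array left out.

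The epithelial scaling moves every difference and list median by the same -1.18, so which values it turned follows from their size alone. With it the difference turned negative for Epcam (-0.56), Foxn1 (-0.65), H2-Ab1 (-0.64) and Ciita (-0.027). The same scaling turned the medians of cortical antigen processing (-0.21), thymocyte-supporting ligands (-0.26), TALE genes (-0.35), Hox genes (-0.47), progenitor surface markers (-0.52), MHC class II (-0.80), microfold-like genes (-1.17), the Notch (-0.83), Wnt (-0.59), BMP and TGF-beta (-0.10) and FGF and IGF (-0.53) pathways, interferon response (-0.10) and fibroblast markers (-0.13). Microfold-like genes also turned with normexp (-0.0096) and median scaling (-0.11), and endothelial markers with normexp (0.15).

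With an array left out, the difference ranged from -1.90 to 0.72 for Aire, -0.29 to 1.53 for Epcam, -0.27 to 1.33 for Foxn1, -0.39 to 1.46 for H2-Ab1 and -0.53 to 2.83 for Ciita. List medians that changed sign ranged from -0.53 to 1.08 for MHC class II, -1.23 to 0.095 for endothelial markers, -0.12 to 2.58 for epithelial junctions and simple keratins, -0.92 to 1.08 for microfold-like genes, -1.51 to 1.02 for mature medullary genes, -1.47 to 0.73 for tissue-restricted antigens, -1.50 to 1.12 for macrophage and dendritic cell markers and -0.77 to 0.30 for erythroid markers. The medians of the tuft, taste, basal, attachment, matrix, mitosis and replication lists kept their sign under the alternatives run, but not their size. The epithelial scaling moved each by the same -1.18, so it could not turn the negative mitosis and replication medians. With it the taste median was 0.09 in place of 1.27, tuft 0.85 in place of 2.03 and basal 1.30 in place of 2.47. Attachment was 0.76 in place of 1.94 and matrix 0.71 in place of 1.88. Mitosis was -2.92 in place of -1.75 and replication -2.84 in place of -1.67. The precision is limited by 2 arrays per gate, by signal near background in dim genes and by the thymocyte transcripts on Meis1-negative replicate 1.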

Other observations

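Cornified epithelial genes, which mark the end stage of medullary cells, were higher in Meis1-high mainly on slide 1. Of 20 on the array, 11 were higher on both slides, 1 was lower and 2 were separated 2-fold, with a median difference of 3.57 on slide 1 and 0.25 on slide 2. Krt10, a keratin of cells leaving the basal layer, measured 3.43 and 1.60 in Meis1-high and -2.81 and 0.98 in Meis1-negative. Sprr2d, of the cornified envelope, measured 2.75 and -0.01 against -3.13 and -1.23, and Calml3 4.82 and 3.94 against 1.43 and 2.76. Klk8, a serine protease of the skin, was lower on both slides, and its signal was not above background in Meis1-high.

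Surface markers used to find epithelial progenitors were mixed. Of 16, 7 were higher on both slides, 2 lower and 1 separated 2-fold, the transcription factor gene Klf4, at 3.72 and 3.50 against 0.66 and 2.39. Ly6a, which encodes Sca-1, measured 4.86 and 4.69 against 2.39 and 4.05. The median of the list was 1.52 on slide 1 and 0.12 on slide 2, and -0.52 with arrays scaled on the epithelial genes. The 13 genes known from microfold cells, which sample antigen in the gut, had medians of 1.53 and -0.76 on the slides.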
